A study of Vitis vinifera with 27 samples.

Results

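Berry transcripts of the Muscat table grape cultivars Zaomeiguixiang and Xiangfei were compared at EL35, the stage at which berries begin to colour and soften. The comparison takes every sample whose label gives one of these cultivars and this stage, which is 6 of the 27 samples of the series, 3 of each cultivar. Zaomeiguixiang ripens to a purple-reddish skin and Xiangfei to a green to golden one, and both are described as strongly Muscat in flavour. All vines grew in 1 vineyard under plastic cover, and no treatment was applied. Each replicate was a pool of berries picked at random. The study describes no separation of skin and flesh and does not say whether seeds were removed. A lower level in such bulk RNA may come from fewer cells of a type or from less RNA per cell. These cannot be told apart. Both cultivars were labelled EL35 by berry appearance, so cultivar and exact ripeness within that stage cannot be told apart either. The study also measured the juice of these replicates. Every Xiangfei replicate had more soluble solids, more titratable acid and a lower pH than every Zaomeiguixiang one. The series also holds Italia, a moderately Muscat cultivar, and the later stages EL36 (end of veraison) and EL38 (harvest), which are used below where they bear on the 6 samples.

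At the onset of ripening, called veraison, a grape berry softens, gains sugar, loses chlorophyll and, in coloured cultivars, begins to make anthocyanins in the skin. Anthocyanins become stable pigments when a glucosyltransferase, UFGT, adds glucose to the anthocyanidin, and in grapevine MYB transcription factors switch that step on. Muscat flavour rests on monoterpenes such as linalool and geraniol, whose precursors come mainly from the plastid MEP pathway, beginning with the enzyme DXS. Free aroma molecules can be oxidised, methylated or joined to sugars, and each of these steps is done by a large enzyme family.

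The 6 libraries held between 18845199 and 27186952 assigned fragments and between 17490 and 21390 genes above 0. Seed storage transcripts were present in every library, but their summed level was 25287 FPKM (fragment counts per unit of transcript length and of library size) in Zaomeiguixiang replicate 3, where they took 2.94% of the counts, against 336 to 895 FPKM in the other 5. Xiangfei replicate 1 also stood apart, with 123 genes at 100 or more counts that had at most 3 in each of the other 5 libraries; that number was 16 in Zaomeiguixiang replicate 3 and between 0 and 2 elsewhere. A flavonoid 3',5'-hydroxylase gene (LOC100256733), for instance, was at 96.9 FPKM in Xiangfei replicate 1 and at 0 to 0.02 FPKM in the other libraries. Markers of fleshy berry tissue were present in all 6 libraries, with summed levels of 11961, 19637 and 13775 FPKM in Xiangfei and 14855, 19649 and 13499 FPKM in Zaomeiguixiang, and the ranges overlapped. Skin markers summed to 529 to 640 FPKM in Xiangfei and to 390, 499 and 550 FPKM in Zaomeiguixiang replicates 1 to 3, also overlapping. These sums include UFGT and LOC100255538, both called higher in Zaomeiguixiang (below). UFGT alone gave 21.8, 166 and 90.3 FPKM of the Zaomeiguixiang sums. The overlap therefore depends on a called pigment gene and does not show equal skin content.

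In edgeR's quasi-likelihood test 165 of 17249 genes (0.957%) were called, meaning that the p adjusted over all genes tested did not exceed 0.05 and that the log2 fold change, Zaomeiguixiang over Xiangfei, was at least 1 in either direction. Of these, 92 were higher in Zaomeiguixiang (0.533%) and 73 were higher in Xiangfei (0.423%). The median size of the log2 fold change was 6.12 among the 92 and 5.05 among the 73, and 51 and 37 genes, respectively, passed a log2 fold change of 5. In all 165 genes the replicates of the cultivars did not overlap, which held for 21.4% of all genes tested (9.06% higher in Xiangfei), and 16 genes in each direction had 0 counts in all 3 libraries of the lower cultivar. The median log2 fold change over all genes tested was 0.02.

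**Figure D1:**
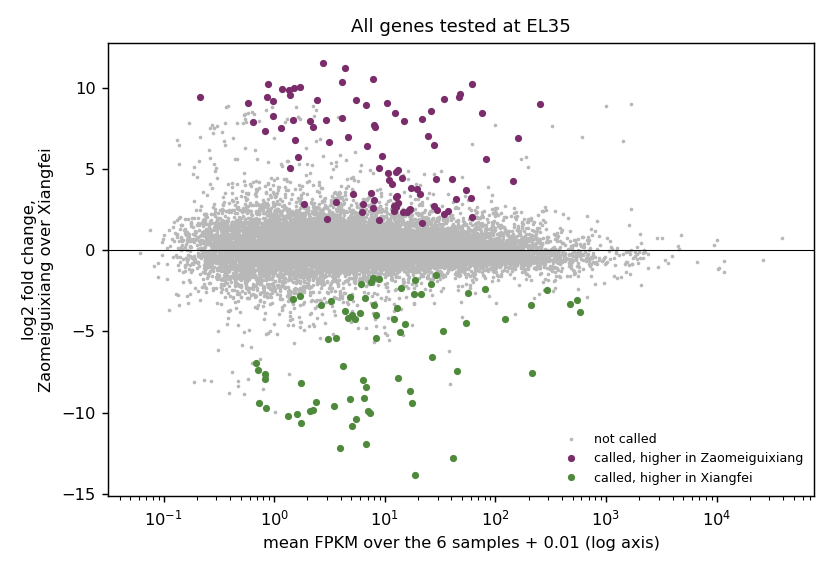
Each point is 1 of the 17249 genes tested at EL35, with its mean FPKM over the 6 samples on a log horizontal axis and its log2 fold change, Zaomeiguixiang over Xiangfei, on the vertical axis. The 92 genes called higher in Zaomeiguixiang are purple and the 73 called higher in Xiangfei are green, and most called genes lie far from 0 while the bulk of genes centres on it.

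How many genes were called depended on the library set. Without Zaomeiguixiang replicate 3, the library with seed transcripts, 55 genes were called higher in Zaomeiguixiang and 41 higher in Xiangfei (0.543% of genes tested for both and 0.232% for the latter), and 87 of the 165 calls were kept. Of the 83 called genes named here, 28 lost their call without that library, and the adjusted p without it is given beside each. Without Xiangfei replicate 1 these numbers were 74 and 70, with 117 kept, and without both libraries 42 and 39, with 66 kept. Leaving out Xiangfei replicate 2 or 3, or Zaomeiguixiang replicate 1 or 2, kept 29, 32, 33 and 40 of the calls. In each of these fits all 165 genes kept their direction. That was largely fixed in advance, since the genes were called on these libraries and their replicates did not overlap. DESeq2, another count test, called 629 genes higher in Zaomeiguixiang (3.33%) and 409 higher in Xiangfei (2.17%), 5.5% in all, and all 165 genes were among them. At the thresholds of the study, edgeR called 3 genes (0.0174%) and DESeq2 called 318, of which 131 (0.694%) were higher in Xiangfei.

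Genes of skin pigment were among those called. Of 66 flavonoid enzyme genes tested, 2 were called higher in Zaomeiguixiang and none higher in Xiangfei (3.03%, against 0.957% of all genes), and both were glucosyltransferases of the UFGT type by product name. UFGT itself was at 0.16, 0.07 and 0.16 FPKM in the Xiangfei replicates and at 21.8, 166 and 90.3 FPKM in those of Zaomeiguixiang. The cultivars lay far apart, although the Zaomeiguixiang replicates ranged widely among themselves. On the log2 scale the difference was 9.45 ± 1.02 (standard error), with an adjusted p of 0.00558 (edgeR). The second gene of the same product name, LOC100255538, was lower throughout, at 0.02 ± 0.03 FPKM in Xiangfei and 3.04 ± 1.73 FPKM in Zaomeiguixiang (SD, n = 3), a log2 fold change of 6.79 (adjusted p = 0.0473, edgeR, and 0.177 without Zaomeiguixiang replicate 3). Its KEGG orthology entry names a different enzyme, a quinone NAD(P)H dehydrogenase.

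Among 42 MYB transcription factor genes tested, 2 were called, both higher in Zaomeiguixiang (4.76%, against 0.533% of all genes in that direction). LOC100233098 is annotated as MYB90, which in Arabidopsis is a regulator that turns on anthocyanin genes, and it was at 0.21, 1.29 and 0.86 FPKM in Xiangfei and at 33.4, 10.6 and 29.9 FPKM in Zaomeiguixiang. On the log2 scale the difference was 4.82 ± 0.79 (standard error; adjusted p = 0.0301, edgeR, and 0.068 without Zaomeiguixiang replicate 3). LOC104877823, annotated as Myb4, the name of a repressor of phenylpropanoid genes in Arabidopsis, was at 0.35, 0 and 0 FPKM in Xiangfei and at 40.6, 18.9 and 30.3 FPKM in Zaomeiguixiang (log2 fold change 7.98, adjusted p = 0.00947, edgeR). Neither gene had overlapping cultivars, and the lowest Zaomeiguixiang replicate was replicate 2 in both. The list median was 0.60 over the 42 genes against 0.02 over all genes.

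Glutathione S-transferases and MATE transporters carry anthocyanins into the vacuole in several plants. Of 67 such genes tested, 2 were called, both higher in Zaomeiguixiang (2.99%, against 0.533% of all genes in that direction). LOC100232878 was at 5.45, 1.97 and 1.85 FPKM in Xiangfei and at 362, 34.8 and 85.4 FPKM in Zaomeiguixiang, where replicate 1 was far above the others (log2 fold change 5.62, standard error 0.85, adjusted p = 0.0228, edgeR). LOC100256700 had no counts in Xiangfei and was at 9, 2.61 and 2.86 FPKM in Zaomeiguixiang, at least 22-fold higher against a floor of 3 counts per library (adjusted p = 0.0473, edgeR, and 0.0835 without Zaomeiguixiang replicate 3). A further glycosyltransferase, LOC100257275 (UDP-glycosyltransferase 79B9-like), which the files place among enzymes that add xylose to anthocyanidin glucosides, likewise had 0 counts in all Xiangfei libraries and was at 11.6, 7.37 and 7.03 FPKM in Zaomeiguixiang. This was at least 88.6-fold higher (adjusted p = 0.00479, edgeR) and was among the 5 genes with 0 counts in every Xiangfei library and at least 100 in every Zaomeiguixiang one.

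The steps before UFGT were not called. Chalcone synthase CHS3, which makes the first flavonoid skeleton and was the list's most abundant gene, stood at 724, 101 and 97.5 FPKM in Xiangfei and at 155, 734 and 1024 FPKM in Zaomeiguixiang. The replicates overlapped, with Xiangfei replicate 1, the library that stood apart, close to the upper Zaomeiguixiang samples and Zaomeiguixiang replicate 1 close to the lower Xiangfei ones (adjusted p = 0.535, edgeR). DESeq2 called 10 of the 66 flavonoid genes, all higher in Zaomeiguixiang, against 3.33% of all genes called in that direction. The median over the 66 flavonoid genes was 0.15 and became -0.17 without Zaomeiguixiang replicate 3.

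**Figure D2:**
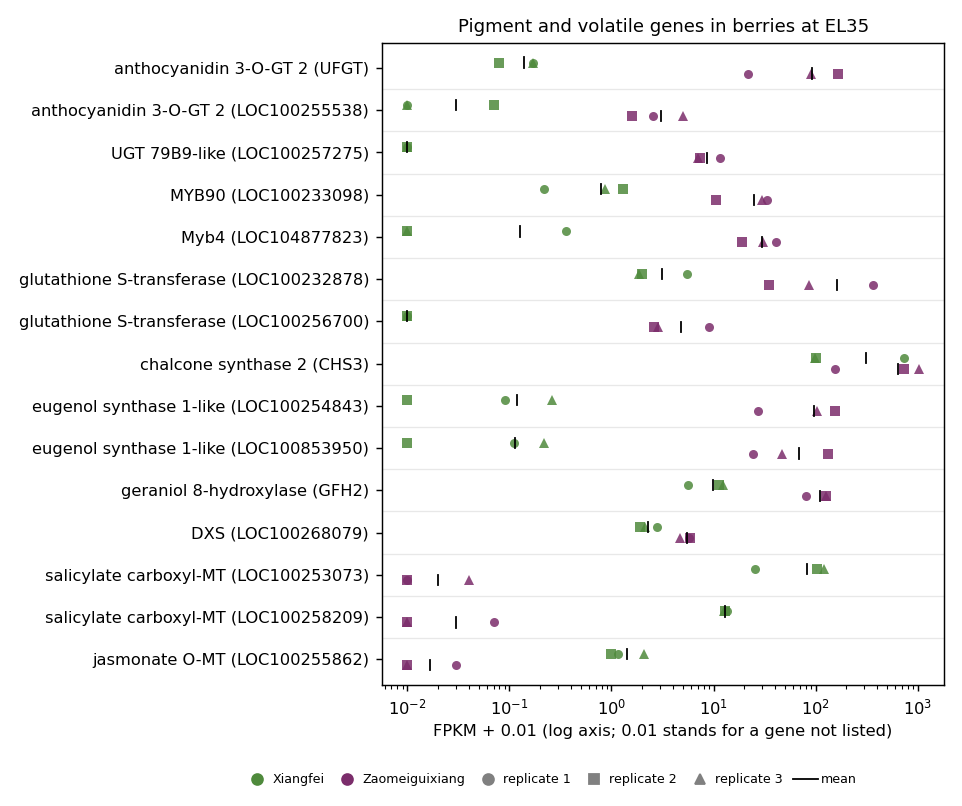
FPKM in each of the 6 samples at EL35 (log axis, 0.01 added, so 0.01 marks a gene not listed) for 15 genes of pigment and volatile metabolism, with Xiangfei in green, Zaomeiguixiang in purple, a symbol for each replicate and a black bar for the cultivar mean. UFGT runs from 0.07 to 0.16 FPKM in Xiangfei and from 21.8 to 166 FPKM in Zaomeiguixiang, salicylate carboxymethyltransferase LOC100253073 shows the opposite order, and chalcone synthase CHS3 overlaps.

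Eugenol synthases reduce coniferyl acetate to eugenol, a clove-scented phenylpropene. Of 7 eugenol synthases and related reductases tested, 2 were called higher in Zaomeiguixiang (28.6%, against 0.533% of all genes in that direction). That list was added after the data were seen, so its share only describes these data. LOC100254843 (eugenol synthase 1-like) was at 0.08, 0 and 0.25 FPKM in Xiangfei and at 27.3, 155 and 103 FPKM in Zaomeiguixiang (log2 fold change 9.62, standard error 1.12, adjusted p = 0.00828, edgeR). LOC100853950, of the same annotation, was at 0.1, 0 and 0.21 FPKM in Xiangfei and at 24.2, 133 and 47 FPKM in Zaomeiguixiang (log2 fold change 9.31, standard error 1.14, adjusted p = 0.00939, edgeR). In the RefSeq gene order of assembly ASM3070453v1, which is not the build the counts were made on, these genes lie 3 genes apart on chromosome 3, and reads of such similar copies may have been divided between them by the estimation of counts. Both had their highest value in replicate 2 and their lowest in replicate 1.

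Of 22 methyltransferases of phenolics and volatiles tested, 3 were called higher in Xiangfei and none higher in Zaomeiguixiang (13.6%, against 0.957% of all genes), and 2 were called without Zaomeiguixiang replicate 3. This list, too, was added after the data were seen. Salicylate carboxymethyltransferases make methyl salicylate, the scent of wintergreen. LOC100253073 was at 25.4, 102 and 120 FPKM in Xiangfei and at 0, 0 and 0.03 FPKM in Zaomeiguixiang (log2 fold change -12.77, standard error 1.18, adjusted p = 0.00263, edgeR). The next gene on chromosome 4 in the same gene order, LOC100258209, has the same annotation and was at 13.5, 12.8 and 12.6 FPKM in Xiangfei and at 0.06, 0 and 0 FPKM in Zaomeiguixiang (log2 fold change -9.10, standard error 0.86, adjusted p = 0.00291, edgeR). LOC100255862, annotated as jasmonate O-methyltransferase, which makes the wound signal methyl jasmonate, was low in both cultivars, at 1.40 ± 0.59 FPKM in Xiangfei and 0.01 ± 0.01 FPKM in Zaomeiguixiang (SD, n = 3; adjusted p = 0.0335, edgeR, and 0.115 without Zaomeiguixiang replicate 3). All 3 genes were near 0 in every Zaomeiguixiang replicate.

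No tested gene of the terpene pathway was called at this stage by edgeR. Coverage of the prenyl diphosphate and terpene synthases was partial: of 51 genes, 23 had counts in any of the 6 samples and 8 were tested. Of 23 genes of the MEP and mevalonate pathways tested, 3 had an unadjusted p under 0.05, and of 8 prenyl diphosphate and terpene synthases 2 did, against 15.3% of all genes tested. The 3 were all higher in Zaomeiguixiang and the 2 both higher in Xiangfei. The list medians were 0.09 and -0.47, and became 0.30 and 0.08 without Zaomeiguixiang replicate 3. DESeq2 called none of the 23 and 1 of the 8, higher in Xiangfei, against 5.5% of all genes and 2.17% in that direction. The most abundant DXS gene, LOC100249323, was at 44.8, 43.8 and 39.3 FPKM in Xiangfei and at 55.1, 31 and 53.9 FPKM in Zaomeiguixiang, overlapping (log2 fold change -0.07, standard error 0.32, adjusted p = 0.942, edgeR). Among the other 3 DXS genes with 10 counts or more on average, LOC100252520 (-0.14, adjusted p = 0.877, edgeR) and LOC100247834 (-0.83, adjusted p = 0.667, edgeR) also overlapped. In LOC100268079 the replicates did not overlap, at 2.81, 1.91 and 2.1 FPKM in Xiangfei and 5.78, 5.91 and 4.67 FPKM in Zaomeiguixiang, but the log2 fold change of 1.17 (standard error 0.38) did not pass the test (adjusted p = 0.206, edgeR).

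A gene that acts on a terpene product was called. GFH2, annotated as geraniol 8-hydroxylase, a cytochrome P450 that oxidises geraniol, was at 5.59, 11.4 and 12.3 FPKM in Xiangfei and at 79.8, 125 and 127 FPKM in Zaomeiguixiang (log2 fold change 3.23, standard error 0.55, adjusted p = 0.0335, edgeR, and 0.0753 without Zaomeiguixiang replicate 3). The lowest Zaomeiguixiang replicate was more than 6 times the highest Xiangfei one. Feruloyl CoA ortho-hydroxylase LOC100265761, which leads to coumarins, was at 0.18, 0 and 0.82 FPKM in Xiangfei and at 58.3, 53.7 and 35.9 FPKM in Zaomeiguixiang (log2 fold change 7.03, adjusted p = 0.0207, edgeR).

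Of 93 UDP-glycosyltransferases tested, the family that attaches sugars to flavonoids, terpenols and hormones, 4 were called higher in Zaomeiguixiang and 1 higher in Xiangfei (5.38%, against 0.957% of all genes). The list was among those added after the data were seen. Besides LOC100257275, the 4 include 2 genes annotated as 7-deoxyloganetin glucosyltransferase that lie 2 genes apart on chromosome 7. LOC100262518 was at 0.43 ± 0.32 FPKM in Xiangfei and 17.4 ± 3.37 FPKM in Zaomeiguixiang (log2 fold change 5.11, adjusted p = 0.01, edgeR), and LOC100267678 was at 0.77 ± 0.45 FPKM in Xiangfei and 25.3 ± 19.9 FPKM in Zaomeiguixiang (log2 fold change 4.94, adjusted p = 0.0451, edgeR, and 0.0603 without Zaomeiguixiang replicate 3; SD, n = 3). LOC100243281 (UDP-glycosyltransferase 83A1) had no counts in Xiangfei and was at 5.08, 0.77 and 2.47 FPKM in Zaomeiguixiang, at least 28-fold higher (adjusted p = 0.0439, edgeR, and 0.09 without Zaomeiguixiang replicate 3). The gene higher in Xiangfei, LOC100256531 (UDP-glycosyltransferase 89A2-like), was at 29.1, 34.4 and 30.5 FPKM there and at 5.69, 5.03 and 5.95 FPKM in Zaomeiguixiang (log2 fold change -2.67, adjusted p = 0.012, edgeR, and 0.0584 without Zaomeiguixiang replicate 3). Without Zaomeiguixiang replicate 3, 2 genes of the family were called, both higher in Zaomeiguixiang.

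Cell wall genes were called in both directions. Softening draws on enzymes that cut pectin and loosen xyloglucan, but of 47 pectin enzymes tested only LOC100256410 (polygalacturonase QRT3) was called (2.13%, against 0.957% of all genes). It was at 0, 0 and 0.11 FPKM in Xiangfei and at 3.7, 38.9 and 20.2 FPKM in Zaomeiguixiang (log2 fold change 9.09, standard error 1.38, adjusted p = 0.0228, edgeR). Of 87 expansin and xyloglucan genes tested, 3.45% were called, against 0.957% of all genes. Only LOC100854486 (xyloglucan galactosyltransferase KATAMARI1 homolog) was called higher in Zaomeiguixiang, at 0.05 ± 0.01 FPKM in Xiangfei and 6.16 ± 1.77 FPKM in Zaomeiguixiang (SD, n = 3; log2 fold change 6.72, adjusted p = 0.00232, edgeR). The 2 called higher in Xiangfei were both endoglucanase 12 genes, enzymes that act on cellulose. LOC100853800 was at 10.5, 10.2 and 9.55 FPKM in Xiangfei and had no counts in Zaomeiguixiang, at least 75.2-fold lower there (adjusted p = 0.00632, edgeR). BGI_novel_G002215, a gene beyond the reference annotation, was at 7.01 ± 2.03 FPKM in Xiangfei and 0.19 ± 0.08 FPKM in Zaomeiguixiang (SD, n = 3; log2 fold change -5.42, adjusted p = 0.00908, edgeR). Over the 87 genes the median log2 fold change was -0.52, and 27 were positive. The replicates did not overlap in 21 genes higher in Xiangfei and 8 higher in Zaomeiguixiang, against 9.06% and 12.4% of all genes. DESeq2 called 10 of the 87 higher in Xiangfei and 3 higher in Zaomeiguixiang, against 2.17% and 3.33% of all genes.

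The most abundant genes called higher in Xiangfei included proteins of the cell surface. Fasciclin-like arabinogalactan proteins are glycoproteins at the plasma membrane and in the wall. LOC100242544 (fasciclin-like arabinogalactan protein 2) was at 796, 1201 and 548 FPKM in Xiangfei and at 98.9, 105 and 86.3 FPKM in Zaomeiguixiang (log2 fold change -3.28, standard error 0.52, adjusted p = 0.0251, edgeR, and 0.117 without Zaomeiguixiang replicate 3). LOC100252982 (fasciclin-like arabinogalactan protein 17) was at 761, 1386 and 767 FPKM in Xiangfei and at 111, 158 and 112 FPKM in Zaomeiguixiang (log2 fold change -3.09, standard error 0.56, adjusted p = 0.0455, edgeR, and 0.176 without that replicate). In both genes the replicates of Xiangfei lay 3 or more times above every Zaomeiguixiang replicate. LOC100232856 (SCUTL2 precursor) was the most abundant called gene, at 712, 1553 and 980 FPKM in Xiangfei and 58, 133 and 62.6 FPKM in Zaomeiguixiang (log2 fold change -3.79, adjusted p = 0.0411, edgeR, and 0.136 without that replicate). LOC100250274 (DRT102) was at 484 ± 57 FPKM in Xiangfei and 96.7 ± 15.3 FPKM in Zaomeiguixiang (SD, n = 3; log2 fold change -2.46, adjusted p = 0.0384, edgeR, and 0.164 without that replicate).

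A further 5 called genes, which belong to none of the lists, encode oxidoreductases or electron carriers, and all but the first were chosen after their values were seen. LOC100250566 (thioredoxin H-type-like), a small protein that reduces disulfide bonds, was at 0, 0 and 0.25 FPKM in Xiangfei and at 171, 111 and 83.6 FPKM in Zaomeiguixiang (log2 fold change 10.25, standard error 0.83, adjusted p = 0.00186, edgeR). LOC100854844 (adrenodoxin homolog, mitochondrial-like), an iron-sulfur electron carrier, was at 0.53 ± 0.09 FPKM in Xiangfei and 55.7 ± 12.3 FPKM in Zaomeiguixiang (SD, n = 3; log2 fold change 6.51, adjusted p = 0.000942, edgeR). The opposite order was found for LOC100853165 (catalase isozyme 1-like), which breaks down hydrogen peroxide and was at 413, 328 and 399 FPKM in Xiangfei and at 47.9, 38.1 and 33.7 FPKM in Zaomeiguixiang (log2 fold change -3.39, standard error 0.40, adjusted p = 0.00828, edgeR). LOC100249552 (L-ascorbate oxidase homolog) was at 64.8 ± 4.52 FPKM in Xiangfei and 2.40 ± 1.03 FPKM in Zaomeiguixiang (SD, n = 3; log2 fold change -4.96, adjusted p = 0.00187, edgeR), and LOC100257926 (cytochrome P450 89A2-like) at 231 ± 88.2 and 12.8 ± 7.02 FPKM (SD, n = 3; adjusted p = 0.0228, edgeR, and 0.0556 without Zaomeiguixiang replicate 3). All 5 genes had replicates that did not overlap.

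Single genes of wax, sugar and hormone lists were called, each higher in Zaomeiguixiang (1.25% to 2% of each list, against 0.957% of all genes). Wax ester synthase family member LOC100255489 (WSD1-like) was at 0.34, 0 and 0.12 FPKM in Xiangfei and at 49.6, 35.2 and 46.1 FPKM in Zaomeiguixiang (log2 fold change 8.12, standard error 0.74, adjusted p = 0.00255, edgeR). It was the only called gene of 50 in the lipid transfer and wax list. LOC100262713 (sugar transport protein 14), of 50 sugar transport and sucrose genes, was at 4.09, 3.23 and 2.99 FPKM in Xiangfei and at 31.2, 13.3 and 17.7 FPKM in Zaomeiguixiang (log2 fold change 2.43, adjusted p = 0.0228, edgeR). LOC100249507 (ERF105-like), of 80 ethylene genes, was at 2.25 ± 1.13 FPKM in Xiangfei and 22.9 ± 15.8 FPKM in Zaomeiguixiang (SD, n = 3; log2 fold change 3.28, adjusted p = 0.0325, edgeR). LOC100248869 (GH3.17-like), which joins auxin to amino acids, had no counts in Xiangfei and was at 1.72 ± 0.43 FPKM in Zaomeiguixiang (SD, n = 3; at least 25.5-fold higher, adjusted p = 0.0246, edgeR, and 0.09 without Zaomeiguixiang replicate 3). It was the only called gene of 63 auxin genes, and none was called without that library. None of 95 abscisic acid genes, 27 carotenoid genes, 10 stilbene synthases, 62 organic acid and vacuolar genes, 62 heat shock proteins, 19 aquaporins, 71 cell division genes and 31 peroxidases and laccases tested was called by edgeR. In the same order, 11, 7, 0, 7, 6, 4, 14 and 4 of them had an unadjusted p under 0.05. These shares lay on both sides of the 15.3% of all genes. DESeq2 called between 0 and 7 in each of these lists, against 5.5% of all genes.

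The summed level of the photosynthesis list was 5599, 3839 and 6882 FPKM in Xiangfei and 3983, 2425 and 2818 FPKM in Zaomeiguixiang, where Zaomeiguixiang replicate 1 overlapped with Xiangfei replicate 2. None of 44 genes was called by edgeR, 15 had an unadjusted p under 0.05 (15.3% of all genes did), all higher in Xiangfei, and 8 were called higher in Xiangfei by DESeq2 (2.17% of all genes were). The list median was -0.66, and the replicates did not overlap in 14 genes higher in Xiangfei and 2 higher in Zaomeiguixiang, against 9.06% and 12.4% of all genes. The most abundant of them, LOC100240928 (photosystem I reaction center subunit II), was at 862, 945 and 1417 FPKM in Xiangfei and at 557, 356 and 296 FPKM in Zaomeiguixiang (log2 fold change -1.58, standard error 0.47, adjusted p = 0.18, edgeR).

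Of 74 pathogenesis-related genes 1 was called (1.35%, against 0.957% of all genes). This gene, BGI_novel_G001229 (pathogenesis-related protein 4), was at 0.21, 0 and 0 FPKM in Xiangfei and at 14.7, 4.39 and 8.37 FPKM in Zaomeiguixiang (log2 fold change 7.00, adjusted p = 0.0292, edgeR, and 0.0753 without Zaomeiguixiang replicate 3). The replicates did not overlap.

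The most abundant gene of each of the 29 lists described or used as markers, 28 genes in all, was called in no case (edgeR, smallest adjusted p = 0.18). Abscisic stress-ripening protein LOC100250281, a small protein of ripening and drought, was at 29707 ± 18113 FPKM in Xiangfei and 22307 ± 5137 FPKM in Zaomeiguixiang (SD, n = 3; log2 fold change -0.57). Aquaporin PIP1;3, a water channel, was at 13424 ± 5148 and 7057 ± 1408 FPKM (SD, n = 3; log2 fold change -1.14), xyloglucan endotransglucosylase LOC100265471 at 4257 ± 1349 and 4922 ± 2690 FPKM (SD, n = 3; log2 fold change 0.10), and pectate lyase PL1 at 1590 ± 425 and 1640 ± 519 FPKM (SD, n = 3; log2 fold change -0.11). In these 4 softening and ripening genes the replicates overlapped.

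Disease resistance genes of the NLR type, intracellular receptors that detect pathogens, were called in both directions. Of 331 tested, 7 were higher in Zaomeiguixiang and 4 higher in Xiangfei (3.32%, against 0.957% of all genes). The list median was 0.53, and 222 of the 331 had a positive log2 fold change, against 8799 of 17249 over all genes. Without Zaomeiguixiang replicate 3 the calls were 4 and 4, and the median was 0.24. LOC104878831 (RGA3) was at 8.28, 9.6 and 5.82 FPKM in Xiangfei with no counts in Zaomeiguixiang, at least 194-fold lower there (adjusted p = 0.00255, edgeR). The adjoining gene on chromosome 3, LOC104878832, whose protein is hypothetical, was at 3.43, 3.02 and 3.89 FPKM in Xiangfei and also had no counts in Zaomeiguixiang (at least 65.8-fold lower, adjusted p = 0.00828, edgeR). Higher in Zaomeiguixiang were LOC100852948 (At3g14460), at 1.27, 1.96 and 1.97 FPKM, and LOC104880339 (RPP8-like protein 3), at 0.87, 1.7 and 0.85 FPKM, both with no counts in Xiangfei and at least 43.8-fold and 19.6-fold higher (adjusted p = 0.0133 and 0.0443, edgeR). The latter had an adjusted p of 0.104 (edgeR) without Zaomeiguixiang replicate 3. LOC109121506 (TMV resistance protein N-like), LOC104877649 (RPP13-like protein 4) and LOC100854936 (At4g19060) had means of 5.79, 2.29 and 10.7 FPKM in Zaomeiguixiang and of 0.02, 0.01 and 1.80 FPKM in Xiangfei, and lost their calls without that library (adjusted p = 0.0859, 0.0571 and 0.112, edgeR). The remaining 5 genes of the list belong to groups in which one copy was higher in each cultivar, described next.

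Receptor-like kinases, the surface counterpart of the NLR genes, gave 8 genes higher in Zaomeiguixiang and 5 higher in Xiangfei of 462 tested (2.81%, against 0.957% of all genes), with a list median of 0.01. This list was likewise added after the data were seen. G-type lectin receptor kinases LOC104879875 and LOC100243307 had no counts in Xiangfei and were at 3.40 ± 0.50 and 2.69 ± 0.99 FPKM in Zaomeiguixiang (SD, n = 3; at least 38.7-fold and 34.5-fold higher, adjusted p = 0.0142 and 0.0175, edgeR). Wall-associated kinase LOC109122896 and receptor-like protein LOC100256900 had no counts in Zaomeiguixiang and were at 14.7 ± 8.10 and 1.67 ± 0.39 FPKM in Xiangfei (SD, n = 3; at least 43.4-fold and 34.8-fold lower in Zaomeiguixiang, adjusted p = 0.0273 and 0.0228, edgeR). For LOC109122896 the adjusted p was 0.0519 (edgeR) without Zaomeiguixiang replicate 3.

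For 6 annotated products, separate genes of the same name were called in opposite directions. Reads of similar copies are divided by the estimation of counts, and a difference in transcription and a difference in read assignment cannot be told apart here. For 60S ribosomal protein L26-1, a component of the large ribosomal subunit, LOC100242242 was at 416, 263 and 591 FPKM in Xiangfei and at 3.15, 3.08 and 0.92 FPKM in Zaomeiguixiang (log2 fold change -7.56, standard error 0.73, adjusted p = 0.00335, edgeR). LOC100855039 was at 0, 2.39 and 0 FPKM in Xiangfei and at 798, 259 and 472 FPKM in Zaomeiguixiang (log2 fold change 9.05, standard error 1.53, adjusted p = 0.0335, edgeR). Their sum, over 2 of the 4 genes of this name, was 424 ± 163 FPKM in Xiangfei and 512 ± 271 FPKM in Zaomeiguixiang (SD, n = 3), and these sums overlapped.

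For mannitol dehydrogenase, an annotation shared with alcohol dehydrogenases of aromatic substrates, the sum did differ. LOC100252642 was at 57.3, 106 and 145 FPKM in Xiangfei and at 2.71, 7.77 and 5.07 FPKM in Zaomeiguixiang (log2 fold change -4.47, adjusted p = 0.0228, edgeR, and 0.0777 without Zaomeiguixiang replicate 3). LOC100854583 was at 7.82, 16.7 and 11.8 FPKM in Xiangfei and at 315, 219 and 289 FPKM in Zaomeiguixiang (log2 fold change 4.26, adjusted p = 0.00828, edgeR). The sum of the pair was 115 ± 46.3 FPKM in Xiangfei and 279.5 ± 47.4 FPKM in Zaomeiguixiang (SD, n = 3), with no overlap.

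The other 4 products had lower levels. Among At5g66900 disease resistance genes, LOC100246132 (13.7, 12 and 9.48 FPKM in Xiangfei, 3.82, 3.38 and 4.82 FPKM in Zaomeiguixiang; adjusted p = 0.0455, edgeR, and 0.167 without Zaomeiguixiang replicate 3) adjoins LOC100853370 (4.79, 1.35 and 0.91 FPKM in Xiangfei, 24.4, 31.1 and 40.3 FPKM in Zaomeiguixiang; adjusted p = 0.0175, edgeR) on chromosome 7. A further gene of that name, LOC100258874, was higher in Xiangfei, and the 3 genes together summed to 37.6 ± 21.2 FPKM in Xiangfei and 38 ± 8.09 FPKM in Zaomeiguixiang (SD, n = 3). Among At4g27190 genes, LOC104881068 (1.61 ± 0.85 FPKM in Xiangfei; adjusted p = 0.0637 without Zaomeiguixiang replicate 3, edgeR) was near 0 in Zaomeiguixiang, and LOC104881064 (4.19 ± 2.01 FPKM in Zaomeiguixiang) was near 0 in Xiangfei (SD, n = 3). For receptor kinase CRK10, LOC100243142 was at 1.34 ± 0.50 FPKM in Xiangfei and at most 0.01 FPKM in Zaomeiguixiang (adjusted p = 0.0753 without Zaomeiguixiang replicate 3, edgeR), and LOC100257888 was at 1.30 ± 0.84 FPKM in Xiangfei and 27.4 ± 4.56 FPKM in Zaomeiguixiang (SD, n = 3), so that Xiangfei had both copies at similar levels. For the amino-acid acetyltransferase NAGS1, the first enzyme of arginine synthesis, BGI_novel_G002335 was higher in Xiangfei (41.7 ± 9.69 against 15.7 ± 2.81 FPKM) and BGI_novel_G001888 was listed in Zaomeiguixiang alone, at 9.32, 12.5 and 10.9 FPKM (SD, n = 3). The first had the higher mean in both cultivars, and neither was called without Zaomeiguixiang replicate 3 (adjusted p = 0.199 and 0.0944, edgeR).

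**Figure D3:**
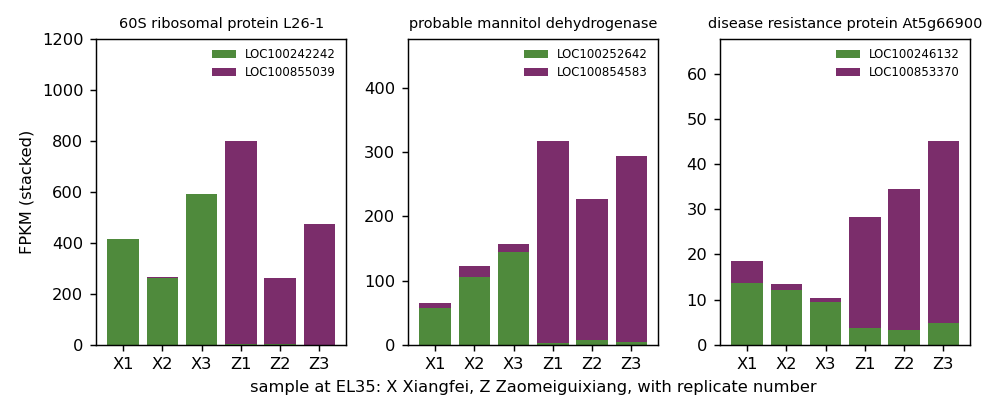
Stacked FPKM in each of the 6 samples at EL35 for 3 pairs of genes with the same annotation, with the copy higher in Xiangfei in green and the copy higher in Zaomeiguixiang in purple. In ribosomal protein L26-1 the totals overlap although the copies change over almost completely, whereas the mannitol dehydrogenase totals are higher in every Zaomeiguixiang sample.

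Over the 24339 genes listed in any of the 6 samples, 5 had 0 counts in every Xiangfei library and at least 100 in every Zaomeiguixiang library (0.0205%), and 6 the reverse (0.0247%). The largest difference among these was that of LOC104878163 (cysteine desulfurase 1, mitochondrial-like), an enzyme that supplies sulfur for iron-sulfur clusters, which was at 37.4, 39.2 and 35.8 FPKM in Xiangfei and had 0 counts in all Zaomeiguixiang libraries, at least 623-fold lower there (adjusted p = 0.00138, edgeR). Its Xiangfei replicates differed by less than 10% from one another. LOC100855189 (F-box/LRR-repeat protein 10), of a family that marks proteins for degradation, was at 4.12, 7.73 and 4.76 FPKM in Zaomeiguixiang and had no counts in Xiangfei (at least 107-fold higher, adjusted p = 0.00479, edgeR). Genes without an informative product name in this class were LOC100256196, at 15.6 ± 11.4 FPKM in Zaomeiguixiang alone, and LOC100251812 and BGI_novel_G000106, which the files place in cytochrome P450 family 71, at 11 ± 1.53 and 13.5 ± 6.02 FPKM in Xiangfei alone (SD, n = 3).

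Other genes with very large differences had single known or predicted products. Higher in Zaomeiguixiang were LOC100244843 (acyl-activating enzyme AAE7), at 3.75, 2.7 and 2.51 FPKM against no counts, LOC104877544 (ankyrin-1-like), at 2.64, 1.32 and 2.98 FPKM against no counts, and LOC100261221 (lachrymatory-factor synthase-like), at 4.68, 3.66 and 16.2 FPKM against no counts. Higher in Xiangfei were LOC109121464 (plant UBX domain-containing protein 4), at 40.9, 26 and 37.8 against 0, 0.13 and 0.07 FPKM, and LOC100266130 (box C/D snoRNA protein 1), at 16.1, 6.14 and 6.98 against 0.02, 0 and 0.02 FPKM. LOC104879905 (SCAI homolog) and LOC100854143 (F-box/LRR-repeat protein 23) were at 4.51 ± 0.71 and 3.21 ± 1.54 FPKM in Xiangfei (SD, n = 3) with no counts in Zaomeiguixiang. The adjusted p of these 7 genes lay between 0.00138 and 0.0249 (edgeR), and without Zaomeiguixiang replicate 3 LOC104877544 and LOC100261221 had 0.0553 and 0.0698. Without an informative product name, LOC104878422 (0.38 ± 0.13 against 151 ± 48.3 FPKM) and LOC100247588 (2.36 ± 2.95 against 319.5 ± 67.6 FPKM) were among the most abundant genes higher in Zaomeiguixiang (SD, n = 3), and LOC100252144 (0.02 ± 0.01 against 13.4 ± 2.55 FPKM) had the smallest adjusted p of all, 0.000675 (edgeR).

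Seed transcripts followed 2 patterns. The major storage proteins were high in Zaomeiguixiang replicate 3 alone. LOC100252101 (2S albumin-like) was at 14.9, 0 and 3.93 FPKM in Xiangfei and at 3.92, 0 and 10096 FPKM in Zaomeiguixiang, and LOC100246409 (cruciferin CRU1-like) at 74.2, 0 and 6.29 FPKM and at 5, 0 and 8489 FPKM. Neither was called (adjusted p = 0.264 and 0.391, edgeR), and their log2 fold changes of 9.05 and 6.76 became -1.59 and -3.29 without that library. The other pattern was opposite. Of 25 seed protein genes tested, 3 were called higher in Xiangfei (12%, against 0.423% of all genes in that direction), with and without Zaomeiguixiang replicate 3, and none was called higher in Zaomeiguixiang.

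These 3 genes were high in every Xiangfei replicate and low in every Zaomeiguixiang replicate, including the one rich in other seed transcripts. LOC100263489 (13S globulin basic chain-like) was at 37.4, 76.2 and 157 FPKM in Xiangfei and at 0.07, 0.81 and 0.97 FPKM in Zaomeiguixiang (log2 fold change -7.44, standard error 1.00, adjusted p = 0.0137, edgeR). LOC100260054 (11S globulin seed storage protein 2) was at 25.9, 64.5 and 68.7 FPKM in Xiangfei and at 0.36, 1.17 and 0.39 FPKM in Zaomeiguixiang (log2 fold change -6.57, standard error 0.83, adjusted p = 0.0106, edgeR). LOC100265260 (glutelin type-A 3-like) was at 9.02, 11 and 18 FPKM in Xiangfei and at 0.06, 0.05 and 0.06 FPKM in Zaomeiguixiang (log2 fold change -8.02, standard error 0.68, adjusted p = 0.00197, edgeR). They follow one another as neighbouring genes on chromosome 12 in the RefSeq order. By EL38 their Zaomeiguixiang means were 29, 15.5 and 11.7 FPKM, and the cultivar differences of -1.94, -1.71 and -2.29 were not called (adjusted p = 0.0702, 0.0889 and 0.277, edgeR).

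**Figure D4:**
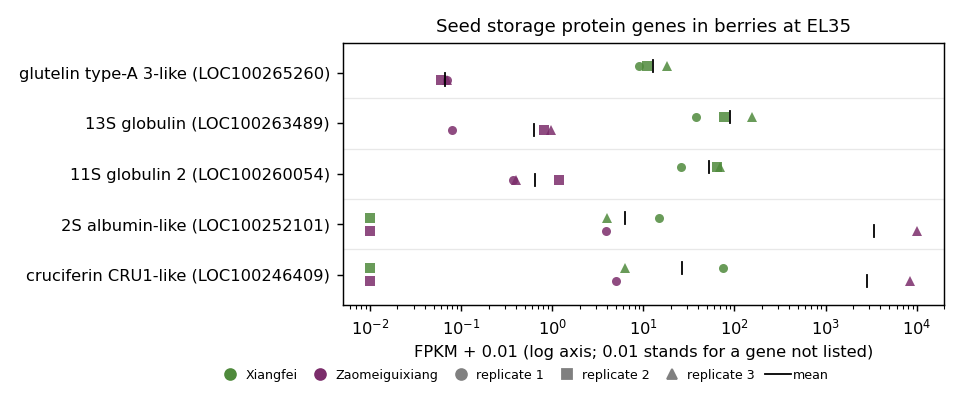
FPKM in each of the 6 samples at EL35 (log axis, 0.01 added) for 5 seed storage protein genes, with Xiangfei in green, Zaomeiguixiang in purple, a symbol for each replicate and a black bar for the cultivar mean. The glutelin and globulin genes are at 9.02 FPKM or more in every Xiangfei sample and at 1.17 FPKM or less in every Zaomeiguixiang sample, while the albumin and cruciferin genes reach 10096 and 8489 FPKM only in Zaomeiguixiang replicate 3.

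Other samples of the same cultivars, picked at EL36 and EL38, showed which differences recurred. Of the 92 genes higher in Zaomeiguixiang, 78 of 86 tested had the same direction at EL36 and 86 of 89 at EL38, and 15 and 43 were called there. Of the 73 higher in Xiangfei, 64 of 68 tested kept their direction at EL36 and 66 of 69 at EL38, and 18 and 41 were called. None was called in the opposite direction in these fits, and 1 of the 73 was at EL36 without Xiangfei replicate 2. Over all genes, 0.317% were called at EL36 and 2.77% at EL38 (1.25% higher in Zaomeiguixiang and 1.51% higher in Xiangfei), and the median log2 fold changes were -0.01 and 0.06.

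The counts called at later stages moved with the library left out. Without Xiangfei replicate 1 at EL36, the number of genes called at that stage changed from 56 to 1524. In that fit 43 of the 92 and 48 of the 73 were called, against 3.36% and 4.88% of all genes in these directions. Without Xiangfei replicate 3 at EL38, the number of genes called changed from 481 to 5413. There 73 of the 92 and 54 of the 73 were called, against 16.1% and 13.8% of all genes in these directions. Leaving out any other library, of either cultivar, lowered both numbers, to between 0 and 39 genes at EL36 and between 67 and 219 at EL38. The first of these libraries was unlike its replicates in several of the genes above: GFH2 was at 119 FPKM against 4.65 and 21.6 FPKM, and QRT3 gene LOC100256410 at 30.3 FPKM against 0 and 0.9 FPKM. MYB90 (LOC100233098) was at 27.1 FPKM there against 2.46 and 3.23 FPKM. UFGT in the same library was at 0.78 FPKM, below the 64.4 to 166 FPKM of Zaomeiguixiang at EL36.

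In all, 31 genes were called in the same direction at all 3 stages. They include UFGT, both eugenol synthases, thioredoxin LOC100250566, L26-1 copy LOC100242242, catalase LOC100853165, salicylate carboxymethyltransferase LOC100253073, both endoglucanase 12 genes and LOC104878831. UFGT had a log2 fold change of 8.25 at EL36 and 10.62 at EL38 (adjusted p = 0.0345 and 0.00442, edgeR). Eugenol synthase LOC100254843 had 10.63 and 10.86, and salicylate carboxymethyltransferase LOC100253073 had -9.73 and -8.63. Flavin monooxygenase LOC100255688 and UV-B-induced protein gene BGI_novel_G002513 were also in this set, the latter at 52.5 ± 3.04 FPKM in Zaomeiguixiang at EL35 and 53.2 ± 13.2 FPKM at EL38 (SD, n = 3), and at most 0.44 FPKM in Xiangfei at those stages.

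Some differences of EL35 were smaller at harvest, without passing a test of the change. LOC100262713 (sugar transport protein 14) had a log2 fold change of 2.43 at EL35 and 0.31 at EL38, carboxylesterase LOC100252181 of 4.38 and 1.74, and LOC100247588 of 6.93 and 2.14. In the test of whether the cultivar difference itself differed between EL35 and EL38, edgeR called 0 of 19200 genes, with 1647 (8.58%) at an unadjusted p under 0.05, and DESeq2 called 245. Without Xiangfei replicate 3 of EL38, edgeR called 44.

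**Figure D5:**
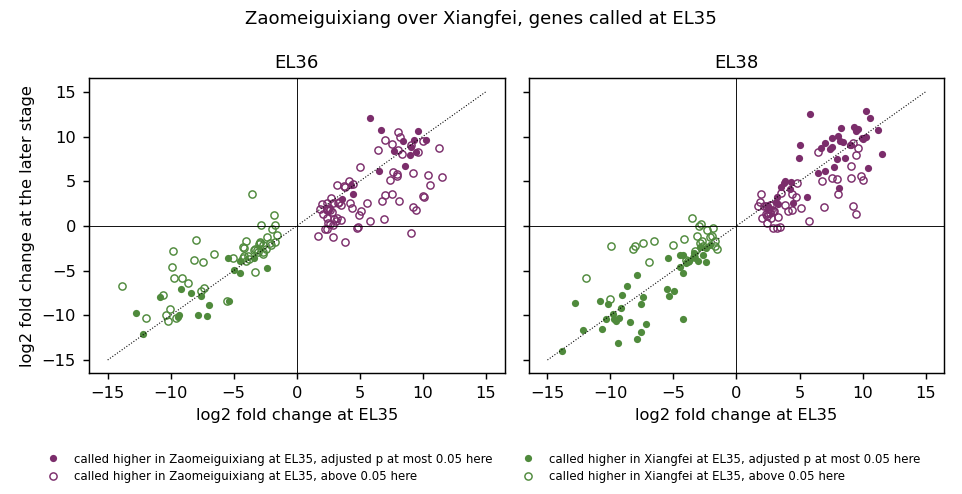
Log2 fold changes, Zaomeiguixiang over Xiangfei, of the genes called at EL35 (horizontal axis) against the same contrast at EL36 and at EL38 (vertical axes); filled points had an adjusted p of at most 0.05 at the later stage, and the dotted line marks equal values. Most points lie where both contrasts have the same sign, with 78 of 86 and 64 of 68 genes in the same direction at EL36 and 86 of 89 and 66 of 69 at EL38.

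Italia at EL35 gives a further level for these genes, without a test. It lay near Xiangfei in UFGT (0.19 ± 0.03 FPKM), both eugenol synthases (0.11 ± 0.01 and 0.17 ± 0.14 FPKM) and MYB90 (0.02 ± 0.03 FPKM), and near Zaomeiguixiang in the other UFGT-type gene, LOC100255538 (2.30 ± 1.44 FPKM), in KATAMARI1 homolog LOC100854486 (8.05 ± 1.64 FPKM), CRK10 gene LOC100257888 (29.3 ± 9.93 FPKM) and LOC100255688 (16.3 ± 5.52 FPKM). Glutathione S-transferase LOC100232878 was at 128 ± 91.3 FPKM in Italia with UFGT near 0 there. Catalase LOC100853165 was higher in Italia, at 840 ± 279 FPKM, than its mean in either other cultivar, and both L26-1 copies were low, at 9.84 ± 8.64 FPKM for LOC100242242 and 1.45 ± 0.34 FPKM for LOC100855039 (all SD, n = 3).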

How the data were processed

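RNA-seq of berries of Zaomeiguixiang and Xiangfei at EL35 was analysed, with the same cultivars at EL36 and EL38 and Italia for reference. Reads were filtered by the authors, aligned to the grapevine genome with HISAT to find transcripts missing from its annotation, and aligned to the combined transcripts with Bowtie2 for estimation by RSEM. The deposited files hold expected counts without normalization and FPKM values for each sample and list only genes above 0, so that unlisted genes were set to 0. The build of these gene models differs from that of the RefSeq table used for gene order, which placed 121 of the called genes.

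Rounded expected counts of the 6 samples entered edgeR 4.0.16 (quasi-likelihood test, TMM, filterByExpr; R 4.3.3), and p was adjusted over all genes tested by the Benjamini-Hochberg method. A standard error is the absolute log2 fold change divided by the root of the F statistic, and is rough where a cultivar had 0 counts. DESeq2 1.42.0 was an alternative. Python 3.11.15 with pandas 2.3.3, scipy 1.17.1 and matplotlib 3.10.9 was used. Depth limits precision: 3 counts, the floor used for lower bounds of a fold, were between 1.1e-05% and 1.59e-05% of a library at EL35. Single replicates came from the same vineyard and season, so p-values measure the spread between berry samples, which may be partly technical. The study names 3 vines without saying how they relate to the replicates. The p-values therefore do not cover seasons, and whether they cover vines is not known. Further alternatives were size factors of DESeq2, no count filter, genes of the reference alone, a fit of all 27 samples, the replicate number as a block, single replicates left out, and the thresholds of the study (adjusted p of at most 0.001). Leaving out 2 libraries together, DESeq2 without Zaomeiguixiang replicate 3 and leaving out libraries of later stages were chosen after seeing the data.

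The comparison, its gene lists and rules were chosen with earlier results of these data known. Lists were built from product names, and those of receptor-like kinases, UDP-glycosyltransferases, methyltransferases and eugenol synthases were added after the files were seen. Named genes were, of called genes with a product name and no overlap, the 10 with the largest change each way, the 5 most abundant called genes each way, up to 5 genes each way absent from 1 cultivar with at least 100 counts in every library of the other, the most abundant and up to 4 called members of each list, and DXS genes averaging 10 counts or more. Of the most abundant list members, which were not called, only some are given by name. GFH2, LOC100256733, LOC100246409, LOC104878832, neighbouring genes, copies of 1 product, further called members of the lists, LOC100265761, the oxidoreductases other than LOC100250566, LOC100252144, LOC100252181 and genes followed across stages were named after their values were seen.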

Additional observations from a re-analysis of the deposited data

How the results depend on the processing

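All 83 named genes that were called kept their direction in every alternative that tested them, which was largely fixed by their being called on the same libraries without overlap. The number of genes called at EL35 (165) was 153 to 189 with size factors of DESeq2, no count filter, genes of the reference alone or a fit of all 27 samples. It was 1038 with DESeq2, 318 with DESeq2 and 3 with edgeR at the thresholds of the study, 806 with DESeq2 without Zaomeiguixiang replicate 3 (377 and 429 by direction), 81 without that library and Xiangfei replicate 1, and 30 to 144 when single replicates were left out. The cause of these differences was not tested. With the replicate number as a block 62 genes were called; the deviations of same-numbered samples correlated at -0.14, 0.23 and -0.32, so the numbers were not taken to pair the samples. Leaving out single replicates gave 0 to 1524 genes at EL36, 67 to 5413 at EL38 and 0 to 44 for the difference between EL35 and EL38, where DESeq2 gave 245. The mean FPKM of LOC100256733, Zaomeiguixiang minus Xiangfei, was -32.3 and ranged from -48.4 to 0.00667. Among the 12 named genes tested and not called, 7 changed direction when single replicates were left out: DXS genes LOC100249323 (-0.23 to 0.0865) and LOC100252520 (-0.44 to 0.0366), 2S albumin LOC100252101 (-1.59 to 10.20), cruciferin LOC100246409 (-3.29 to 9.26), LOC100250281 (-0.90 to 0.22), LOC100265471 (-0.68 to 0.42) and PL1 (-0.60 to 0.14). With DESeq2 and without Zaomeiguixiang replicate 3 the albumin, cruciferin and PL1 values were -1.64, -3.34 and 0.10, and without both libraries the first 2 were -0.40 and -0.76.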
